A study of Homo sapiens with 5 samples.

Results

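Aminoacyl-tRNA synthetases attach amino acids to their tRNAs before protein synthesis. The genes described here are 36 aminoacyl-tRNA synthetase genes, 20 for the cytosolic enzymes and 16 for the mitochondrial enzymes. They were found by exact gene symbol among 26902 symbols in a table of exon counts and a table of intron counts. All 36 were in the exon table and 35 in the intron table, the exception being MARS2, which has a single exon. The counts come from A549, an established human lung carcinoma epithelial line, and the series concerns double-stranded RNA from inverted repeats in introns and between genes, RNase L and interferon. There were 5 libraries, each the only one of its group. Mock cells received Lipofectamine alone for 16 h. The other 4 libraries came from cells transfected with 50 nM of a control oligo or of a 23N randomer oligo, in Lipofectamine 2000, for 9 h or 16 h. Total RNA was depleted of ribosomal RNA before sequencing. The oligo chemistry is not given here, and nothing in the labels says whether the libraries came from separate experiments, so p-values measure only the spread between these libraries.

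Each synthetase recognises 1 amino acid and its tRNAs. Most cytosolic and mitochondrial enzymes are encoded by separate nuclear genes, with symbols ending in 2 for the mitochondrial enzyme. KARS and GARS are known to supply both compartments, and EPRS charges both glutamate and proline. In human cells 8 of the cytosolic synthetases are known to assemble, with the scaffold proteins AIMP1, AIMP2 and EEF1E1, into the multisynthetase complex. Many cytosolic synthetase genes are known targets of ATF4, the transcription factor that rises when uncharged tRNA activates the kinase EIF2AK4 or when protein folding in the endoplasmic reticulum fails.

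A library held 1476223 to 2629053 exon counts and 603142 to 1947593 intron counts, with the 2 randomer libraries lowest for exons and highest for introns. Of 7 epithelial markers KRT8, KRT18 and ALDH1A1 had at least 922 exon counts in every library, but EPCAM was at 0 in all but the randomer library at 16 h, which had 4, and KRT7 had 0 to 19. Summed over their lists, leukocyte markers had 0 to 35 counts and endothelial markers 0 to 81, in both cases above 0 only in the 2 randomer libraries. Fibroblast markers summed to 115 to 510, nearly all from COL1A1, with COL1A2 at 0 in every library. The part of these markers in the results below was not tested. In bulk RNA fewer cells of a type and less RNA per cell cannot be told apart.

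VARS and VARS2, the cytosolic and mitochondrial valyl-tRNA synthetase genes, were listed at 0 in every library in both tables. Both lie on chromosome 6. Among the 20 protein-coding genes on each side that are in the exon table, 35 of 39 around VARS and 28 of 38 around VARS2 were also at 0 in all 5 libraries. Of all 17007 protein-coding genes matched by symbol, 27.4% were at 0 throughout. No level is given for either gene. The other 34 members passed the exon filter of at least 10 counts in at least 2 libraries, 19 cytosolic and 15 mitochondrial. For introns 19 cytosolic and 13 mitochondrial members passed.

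The ATF4 link is known to run through a short sequence, the C/EBP-ATF response element. Promoter windows of 300 bases, from 250 before to 50 after the start, were available from RefSeq (GRCh38.p14) for 16 cytosolic and 14 mitochondrial members. The letters TGATGNAA on either strand were found in 7 of the 16 cytosolic members (43.8%), in 1 of the 14 mitochondrial members (7.14%) and in 4.46% of 27305 genes. The stretches below, 60 bases each on the strand of the gene, are shown because they carry this match, in capitals, and because most of these genes appear in the comparisons that follow.
AARS, alanine, chr16:70289660-70289719, minus strand: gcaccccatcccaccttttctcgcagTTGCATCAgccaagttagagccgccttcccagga
CARS, cysteine, chr11:3057392-3057451, minus strand: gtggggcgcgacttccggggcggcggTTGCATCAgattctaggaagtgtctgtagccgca
GARS, glycine, chr7:30594819-30594878, plus strand: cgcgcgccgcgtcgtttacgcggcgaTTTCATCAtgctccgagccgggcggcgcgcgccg
IARS, isoleucine, chr9:92293677-92293736, minus strand: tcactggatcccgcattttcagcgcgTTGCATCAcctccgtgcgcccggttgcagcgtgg
MARS, methionine, chr12:57488038-57488097, plus strand: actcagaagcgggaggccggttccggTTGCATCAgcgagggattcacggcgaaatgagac
NARS, asparagine, chr18:57621789-57621848, minus strand: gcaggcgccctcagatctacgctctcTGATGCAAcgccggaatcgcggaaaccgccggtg
TARS, threonine, chr5:33440941-33441000, plus strand: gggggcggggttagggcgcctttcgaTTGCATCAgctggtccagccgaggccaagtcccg
YARS2, mitochondrial tyrosine, chr12:32756061-32756120, minus strand: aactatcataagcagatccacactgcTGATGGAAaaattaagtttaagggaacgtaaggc

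In 6 of these 8 genes the match is TGATGCAA or its reverse complement TTGCATCA, while GARS and YARS2 differ at the free position. A further 2 motifs were searched on both strands. The ETS core CCGGAAG was in 56.2% of the cytosolic, 50% of the mitochondrial and 12.2% of all genes, and the NRF1 motif, GCGCA followed directly by TGCGC, in 0 cytosolic members, in MARS2 alone among the mitochondrial members (7.14%) and in 1.52% of all genes. A match of letters is a description and not a binding site. The members with and without the TGATGNAA match are compared after the exon and intron results.

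The cytosolic genes were the more highly expressed set. Scaled to TMM library size (CPM) and divided by exon length, the median level over the members was 42.8 CPM per kilobase for cytosolic genes and 8.28 for mitochondrial genes. YARS, for tyrosine, held the largest share of the summed cytosolic exon counts, 18.3%, followed by AARS at 11.9%, EPRS at 11.2% and NARS at 10.4%. The mitochondrial sum rested on fewer genes, with IARS2, for isoleucine, at 38.9% and HARS2, for histidine, at 23.5%. Of the 15 mitochondrial genes tested, 8 had a mean below 50 exon counts per library, against 1 of the 19 cytosolic genes, so their ratios were less precise. The plot of levels by gene and library shows the spread.

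**Figure D1:**
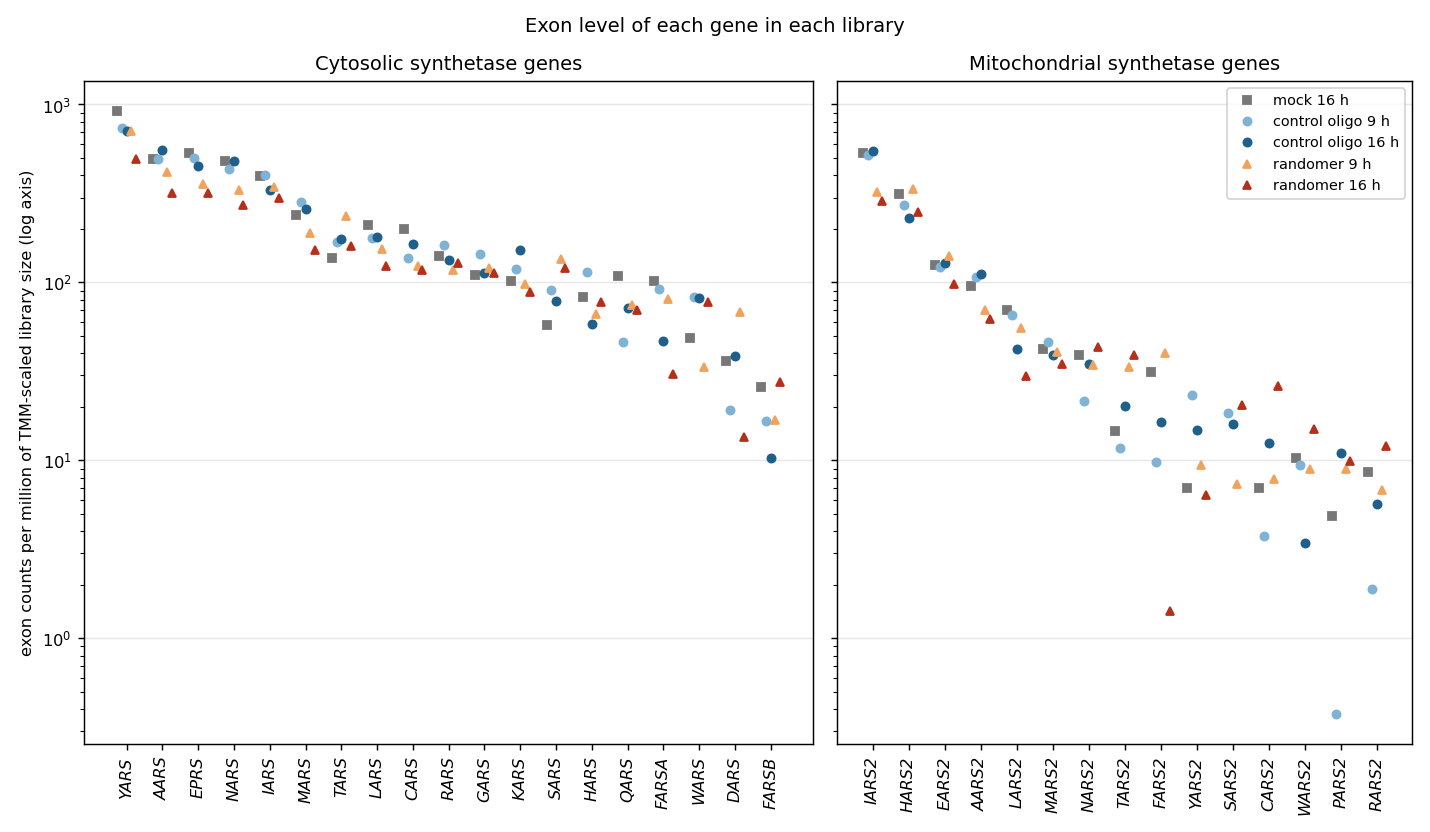
Exon level of each synthetase gene in the 5 libraries, in CPM of the TMM-scaled library size on a log axis and not divided by length, cytosolic and mitochondrial genes in separate panels; a point is 1 library, VARS and VARS2 are left out, and a library at 0, as mock for SARS2, is not drawn. YARS and IARS2 lead their sets, and both randomer libraries lie lowest for genes such as NARS and IARS2, at 321.7 and 286.2 CPM for the latter.

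With randomer, the summed exon level of the cytosolic synthetases was lower than with control oligo at both times. It was 3675 CPM against 4220 at 9 h, a log2 ratio of -0.20 (95% interval -0.24 to -0.16), and 3004 against 4094 at 16 h, 26.6% lower (log2 -0.45, -0.50 to -0.40). Mock cells had 4424, a log2 ratio of control oligo to mock at 16 h of -0.11 (-0.15 to -0.07), next to -0.10 for the sum over all genes under the same scaling. The sum over all genes was -0.08 on the log2 scale for randomer against control oligo at 9 h, and 0.08 at 16 h. The mitochondrial sum was 1123 against 1234 at 9 h (log2 -0.14, -0.22 to -0.06) and 935.4 against 1232 at 16 h (log2 -0.40, -0.49 to -0.30), with 1304 in mock cells. Both sums were lowest in the randomer library at 16 h. The intervals are exact Clopper-Pearson limits for counting error alone, and with 1 library per group these differences have no replicate check.

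Fitted over both times with edgeR's quasi-likelihood test, no cytosolic synthetase passed an adjusted p of 0.05 on exon counts, in either direction, and of the 15 mitochondrial genes 1, IARS2, fell. Over all 11407 genes tested, 6.79% were called higher and 3.11% lower. Before adjustment, p was under 0.05 for 0 cytosolic members higher and 4 lower, and for 1 mitochondrial member higher and 2 lower. Of all 11407 genes tested, 1444 were higher and 1007 lower by this measure. DESeq2 called 2 cytosolic members lower, MARS and NARS, against 3.64% of all genes. The median log2 change was -0.29 for the cytosolic genes, with 14 of 19 below 0, and -0.08 for the mitochondrial genes, with 8 of 15 below 0, against 0.04 over all genes. Among genes of similar abundance, with a mean of 100 to 2000 exon counts, the median was -0.17. The 17 cytosolic and 5 mitochondrial members in this range had medians of -0.31 and -0.36. The cytosolic set was thus no longer the lower one, but the mitochondrial median is the value of 1 gene, LARS2 (SE 0.45). The difference between the cytosolic and the mitochondrial set was not tested.

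Levels in both randomer libraries lay below those of mock and both control oligo libraries, without overlap, for 9 of 19 cytosolic genes (47.4%): AARS, CARS, EPRS, KARS, LARS, MARS, NARS, RARS and YARS. The same held for 18% of all genes tested and for 30.5% of genes with 100 to 2000 mean exon counts. Of the mitochondrial genes 2 of 15 (13.3%) did so, AARS2 and IARS2. Levels in both randomer libraries lay above the other 3 for SARS and TARS2, 1 gene of each set, against 22.5% of all genes. The counts below are given in the order mock, control oligo at 9 h, control oligo at 16 h, randomer at 9 h and randomer at 16 h.

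Among the cytosolic genes MARS, the methionyl-tRNA synthetase that also charges the initiator tRNA, had 444, 748, 679, 360 and 214 exon counts. Its log2 ratio of randomer to control oligo was -0.58 at 9 h and -0.77 at 16 h, and the fitted change was -0.67 (SE 0.26, edgeR adjusted p = 0.0848). NARS, for asparagine, had 885, 1147, 1264, 628 and 383 counts, with ratios of -0.39 and -0.82 and a fitted change of -0.61 (SE 0.23, edgeR adjusted p = 0.0816). Both genes were lower in each randomer library than in any other library, and both missed the threshold. AARS, for alanine, had 908, 1305, 1450, 796 and 449 counts and a fitted change of -0.51 (edgeR adjusted p = 0.147). EPRS had 990, 1322, 1189, 679 and 447 counts and a fitted change of -0.50 (edgeR adjusted p = 0.165). KARS, for lysine, had 188, 315, 402, 187 and 125 counts and a fitted change of -0.53 (edgeR adjusted p = 0.337). These 3 genes also had both randomer libraries lowest after scaling.

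The tryptophan enzyme WARS, known to be induced by interferon gamma in many cells, did not keep its ratio between times. It had 90, 220, 216, 64 and 110 exon counts, a log2 ratio of -1.30 at 9 h and of -0.07 at 16 h (95% interval -0.42 to 0.26), and a fitted change of -0.68 (edgeR adjusted p = 0.332). At 16 h its scaled level was 78.13 CPM with randomer and 82.24 with control oligo, both above the 48.69 of mock cells.

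The highest exon changes among cytosolic genes that averaged 50 counts or more were those of SARS, QARS, DARS and TARS. SARS, the serine enzyme, had 106, 239, 207, 258 and 169 counts, log2 ratios to control oligo of 0.59 (9 h) and 0.61 (16 h), and a fitted change of 0.60 (SE 0.32, edgeR adjusted p = 0.272). It was the cytosolic gene whose 2 randomer libraries both lay above the other 3 after scaling. QARS, for glutamine, had 202, 123, 189, 141 and 99 counts, with ratios of 0.67 and -0.03, and mock cells were its highest library. TARS had 255, 445, 463, 446 and 226 counts, with ratios of 0.48 and -0.14. DARS, the aspartate enzyme, had 67, 51, 102, 129 and 19 counts, so that randomer was above control oligo at 9 h and below it at 16 h, with log2 ratios of 1.82 and -1.52. None of these 4 genes passed the test.

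**Figure D2:**
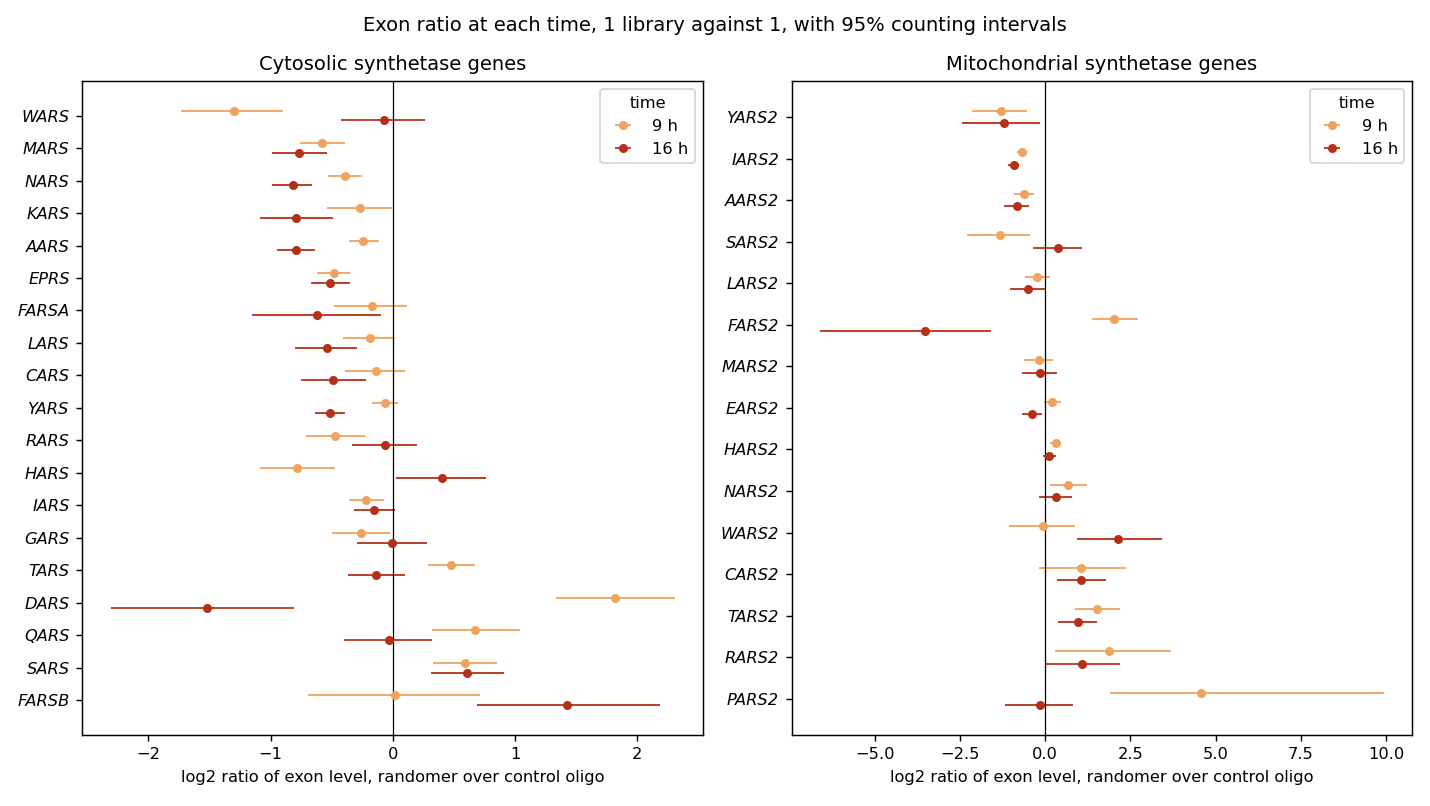
Log2 ratio of exon counts, randomer over control oligo, at 9 h and 16 h for each synthetase gene, with 95% intervals for counting error only; the 2 panels have different horizontal scales. Most cytosolic genes lie left of 0, with IARS2 left of 0 at both times among the mitochondrial genes, and DARS and FARS2 lie on opposite sides of 0 at the 2 times.

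IARS2, the mitochondrial isoleucyl-tRNA synthetase, was the 1 member called. It had 987 exon counts in mock cells, 1371 and 1430 with control oligo and 611 and 403 with randomer. Scaled to CPM these were 533.9, 518.4, 544.5, 321.7 and 286.2, so mock and control oligo were close and both randomer libraries were well below them. The log2 ratio to control oligo was -0.69 at 9 h (95% interval -0.83 to -0.55) and -0.93 at 16 h (-1.09 to -0.77), and the fitted change was -0.81 (SE 0.22, edgeR adjusted p = 0.00967), a 1.75-fold fall. The call was lost without the time term (edgeR adjusted p = 0.0558), a fit that called 95 of all genes lower, against 355 with it. It was also lost when any of the 4 oligo libraries was left out. Such fits leave 1 library in an oligo group, and calls over all genes were fewer in each of them too. The fitted change stayed between -0.89 and -0.72 in those fits. IARS, the cytosolic enzyme for the same amino acid, had a fitted change of -0.18 (edgeR adjusted p = 0.733).

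AARS2, the mitochondrial alanine enzyme, had 177, 285, 293, 133 and 88 exon counts and a fitted change of -0.73 (SE 0.35, edgeR adjusted p = 0.2). Both randomer libraries were below the rest, but the change did not pass the test. LARS2, for leucine, had 129, 173, 111, 106 and 42 counts and a fitted change of -0.36 whose sign turned to 0.03 without control oligo at 9 h and to 0.05 without randomer at 16 h. HARS2 had 582, 724, 607, 639 and 352 counts and a fitted change of 0.21, with the scaled level of randomer at 9 h the highest of the 5. EARS2, the glutamate enzyme, had 231, 323, 336, 268 and 138 counts and a fitted change of -0.08, and NARS2 had 72, 57, 92, 65 and 61 counts and a fitted change of 0.48. None of these 5 genes was called.

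Apart from MARS2, with 49 to 122 exon counts in a library and a fitted change of -0.18 (edgeR adjusted p = 0.894), the remaining mitochondrial genes averaged under 50 counts. FARS2, the mitochondrial phenylalanine enzyme, had 58, 26, 43, 76 and 2 exon counts, above control oligo with randomer at 9 h and nearly absent with randomer at 16 h. TARS2 had 27, 31, 53, 64 and 55 counts and a fitted change of 1.23 (SE 0.61, edgeR adjusted p = 0.217), and YARS2 had 13, 62, 39, 18 and 9 and a fitted change of -1.26 (SE 0.97, edgeR adjusted p = 0.504). The fitted exon changes of the 15 genes ran from -1.26 to 1.75, a wider range than the -0.68 to 0.72 of the 19 cytosolic genes. The SE was larger at low counts, reaching 1.98 for PARS2, which had at most 29 counts in a library.

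Control oligo against mock went in both directions over the members. At 16 h, among members that averaged 50 counts or more over the pair of libraries, the median exon log2 ratio of control oligo to mock was -0.04 over 18 cytosolic genes and -0.13 over 8 mitochondrial genes, against 0.00 over all genes. Of the 18 cytosolic genes 9 lay above 0 and 9 below, from -1.13 for FARSA to 0.76 for WARS. The medians thus do not give the size of single differences. No cytosolic or mitochondrial member at this depth was at least 2-fold higher and only FARSA was at least 2-fold lower, against 5.67% and 3.85% of all genes. Randomer against mock at 16 h had medians of -0.62 over 17 cytosolic and -0.35 over 7 mitochondrial genes, against -0.11 over all genes. Randomer against control oligo at the same time had medians of -0.50 and -0.28, and at 9 h of -0.23 and 0.01, against -0.12 and -0.07 over all genes. The comparisons with mock and with control oligo at 16 h share the randomer library.

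Changes of at least 2-fold at a single time were few. At 9 h DARS and FARS2 were at least 2-fold higher among the 26 members at this depth, against 9.41% of all such genes, and WARS was at least 2-fold lower, against 7.96%. At 16 h 0 members were at least 2-fold higher and DARS was at least 2-fold lower, against 12.1% and 11.6%. Read by counting intervals, 5 cytosolic and 3 mitochondrial genes were below control oligo at both times, against 13.5% of all genes tested, and 1 gene of each set was above it, against 13.2%.

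Intron counts describe unspliced RNA, RNA kept in the nucleus, or transcription that runs through a gene from elsewhere, and cannot separate them. They rose broadly with randomer: over all genes the summed intron level was 3.33-fold that of control oligo at 9 h and 4.7-fold at 16 h. The cytosolic sum rose less at both times. The mitochondrial sum rose less at 16 h, while at 9 h its interval included the all-gene log2 ratio of 1.73. Cytosolic introns were 2.13-fold higher at 9 h (log2 1.09, 95% interval 1.03 to 1.16) and 1.76-fold at 16 h (log2 0.82, 0.75 to 0.89), and mitochondrial introns 3.03-fold (log2 1.60, 1.46 to 1.74) and 2.69-fold (log2 1.43, 1.30 to 1.56). Between 9 h and 16 h of randomer the cytosolic intron level was lower at 16 h (log2 -0.24, -0.31 to -0.18), while the mitochondrial level (log2 0.15, 0.03 to 0.26) and that over all genes (log2 0.57) were higher.

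As a share of all exon and intron counts of the set, introns made up 22.62% in mock cells, 22.06% and 22.92% with control oligo, and 40.91% and 41.69% with randomer for the cytosolic genes. The mitochondrial shares were 22.05%, 16.5% and 19.83%, then 39.69% and 46.68%. Over all genes the shares were 23.56%, 21.97% and 22.95%, then 49.67% and 56.88%. Without randomer the cytosolic share was within 1 percentage point of that of all genes, and with randomer both sets lay below it at both times.

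**Figure D3:**
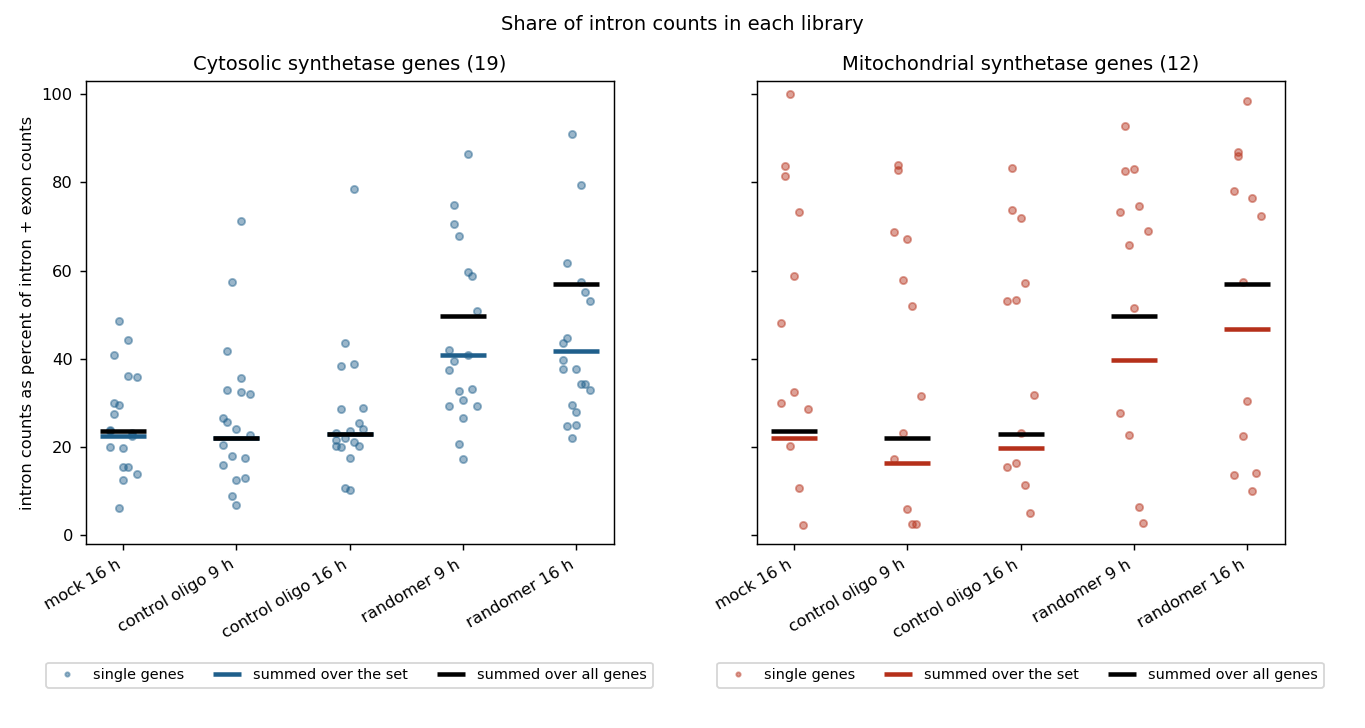
Intron counts as a percent of intron and exon counts in each library, for the cytosolic and mitochondrial genes with enough counts; points are single genes, coloured bars the share summed over the set and black bars the share over all genes. With randomer the cytosolic bar stands at 40.91% and 41.69% against 49.67% and 56.88% over all genes.

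With edgeR and exon library sizes, 5 of 19 cytosolic genes (26.3%) rose on intron counts, CARS, DARS, IARS, RARS and FARSB, and 5 of 13 mitochondrial genes (38.5%), CARS2, FARS2, LARS2, NARS2 and WARS2. No member of either set fell. Over all 11983 genes tested 47.6% were called higher and 0.0501% lower. Whether the share of either set differs from these was not tested. A gene could pass the intron filter through the 2 randomer libraries alone, which bears on the all-gene shares and medians given here. Fitted intron changes over all genes reached 13.94, against 3.23 among the members. How far such genes move the all-gene values was not tested. Before adjustment, p was under 0.05 for 8 cytosolic and 7 mitochondrial genes, all higher, against 6459 of 11983 genes higher and 12 lower. DESeq2 called 11 and 8 higher, against 58.4% of all genes. The median log2 change was 1.12 for cytosolic and 1.54 for mitochondrial genes, against 1.96 over all genes, and 17 of 19 cytosolic but 7 of 13 mitochondrial genes lay below that all-gene median. Among genes with 100 to 2000 mean exon counts the median was 1.61, with 15 of the 17 cytosolic and 4 of the 5 mitochondrial members in this range below it. At that abundance the median was 1.09 for the cytosolic and 0.18 for the mitochondrial members, the reverse of the order of the whole sets. The mitochondrial value is that of EARS2 (SE 0.68), and the difference was not tested. Without overlap, both randomer libraries were above the other 3 for 15 of 19 cytosolic genes (78.9%) and 5 of 13 mitochondrial genes (38.5%), against 70.2% of all genes, and below them for 0 members, against 2.18%. With any of the oligo libraries left out, the cytosolic calls were fewer, and the mitochondrial calls fewer or the same. Calls over all genes were also fewer in each such fit.

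At a single time, among members averaging 50 intron counts or more, 11 of 18 cytosolic and 3 of 6 mitochondrial genes were at least 2-fold higher with randomer at 9 h, against 70.9% of all genes. At 16 h these were 7 of 16 and 5 of 8, against 80.3%. No member was at least 2-fold lower at either time, against 1.11% and 0.877%.

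Among cytosolic genes averaging 50 intron counts or more, the largest fitted intron changes were those of DARS, RARS and FARSB. DARS had 63, 69, 79, 271 and 194 intron counts, in the same library order, and a fitted log2 change of 2.32 (SE 0.52, edgeR adjusted p = 0.00104). RARS, the arginine enzyme, had 76, 92, 120, 319 and 223 counts and a fitted change of 2.03 (SE 0.50, edgeR adjusted p = 0.00219). Both genes had well over the counts of any other library in each randomer library. FARSB, the beta subunit of the phenylalanine enzyme, had 38, 109, 99, 203 and 150 counts and a fitted change of 1.44 (SE 0.52, edgeR adjusted p = 0.0279), a call that was lost when any of the 4 libraries was left out. The RARS call was lost without control oligo at 9 h (edgeR adjusted p = 0.0593).

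EPRS, NARS and MARS stood at the other end. EPRS had 245, 420, 370, 301 and 173 intron counts, a log2 ratio of randomer to control oligo of -0.20 at 16 h (95% interval -0.47 to 0.07) and a fitted change of -0.10 (SE 0.44, edgeR adjusted p = 0.875). NARS had 161, 166, 270, 131 and 127 counts and a fitted change of -0.03 (SE 0.50, edgeR adjusted p = 0.97). MARS had 186, 164, 193, 176 and 90 counts and a fitted change of 0.19 (SE 0.52, edgeR adjusted p = 0.79). The log2 ratio of MARS was 0.58 at 9 h (95% interval 0.26 to 0.90) and -0.20 at 16 h (-0.58 to 0.17), so it was above control oligo at 9 h alone. For NARS the intervals of both times included 0. When introns were scaled by their own TMM factors, which removes most of the general rise, EPRS (log2 -1.74, edgeR adjusted p = 0.000121), NARS (log2 -1.67, edgeR adjusted p = 0.00194), MARS (log2 -1.45, edgeR adjusted p = 0.0128) and LARS (log2 -1.30, edgeR adjusted p = 0.0148) were called lower. In that fit no member was called higher, 15.5% of all genes were higher and 5.13% lower, and the all-gene median was 0.32.

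Among the mitochondrial genes CARS2, for cysteine, had 67, 48, 93, 191 and 246 intron counts and a fitted change of 2.38 (SE 0.52, edgeR adjusted p = 0.000906). FARS2 had 83, 53, 110, 372 and 134 counts and a fitted change of 2.23 (SE 0.59, edgeR adjusted p = 0.00403), and LARS2 had 52, 80, 52, 237 and 111 counts and a fitted change of 2.02 (SE 0.55, edgeR adjusted p = 0.00495). In these 3 genes both randomer libraries exceeded the rest. The calls were lost when a randomer library was left out, CARS2 without 16 h (edgeR adjusted p = 0.077), and FARS2 and LARS2 without 9 h (edgeR adjusted p = 0.114 and 0.0919). FARS2 also lost its call without control oligo at 9 h (edgeR adjusted p = 0.0679) and LARS2 without control oligo at 16 h (edgeR adjusted p = 0.0793). AARS2 had 76, 60, 54, 51 and 14 counts and a fitted change of -0.38, EARS2 had 59, 97, 66, 79 and 40 counts and 0.18, and HARS2 had 70, 19, 78, 44 and 39 counts and 0.77. None of these last 3 genes was called. WARS2, which was called, had 52, 27, 12, 50 and 68 intron counts and a fitted change of 2.35 (SE 0.94, edgeR adjusted p = 0.0447). Its scaled intron level in mock cells, 28.13 CPM, was above the 26.33 with randomer at 9 h.

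**Figure D4:**
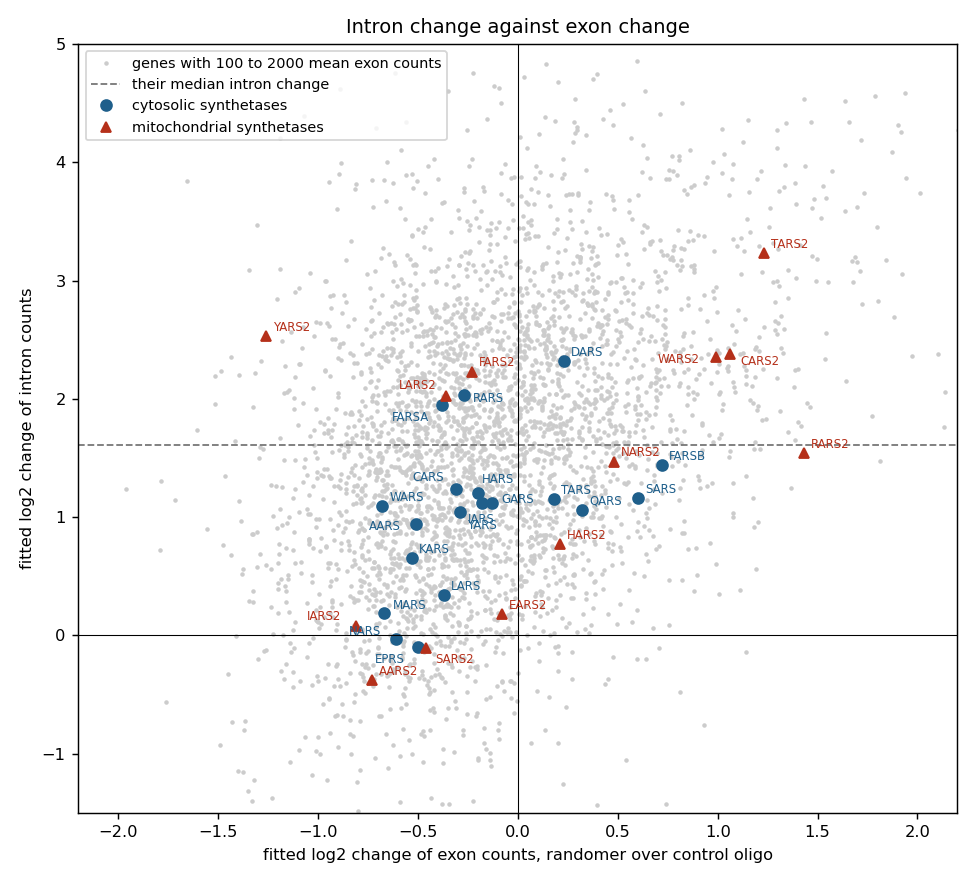
Fitted log2 change of intron counts against that of exon counts, randomer over control oligo, for the synthetase genes and, in grey, genes with 100 to 2000 mean exon counts; the axes leave out some grey points, and the dashed line is the grey median of 1.61. Most cytosolic genes lie below the line and left of 0, with EPRS, NARS and MARS near 0 on the intron axis.

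The intron-to-exon ratio within a gene does not depend on library size, but it carries the general intron rise. Tested with limma, it rose for 6 of 19 cytosolic genes, AARS, CARS, GARS, IARS, RARS and YARS, and for 2 of 13 mitochondrial genes, LARS2 and YARS2, and fell for none, against 32.3% of 9295 genes higher and 0.151% lower. Before adjustment, p was under 0.05 for 10 cytosolic and 3 mitochondrial genes, all higher, against 4116 of 9295 genes higher and 43 lower. The fitted change was above 0 in all 32 members tested, with medians of 1.25 for cytosolic and 0.98 for mitochondrial genes against 1.62 over all genes. RARS had a fitted ratio change of 2.29 (SE 0.46, limma adjusted p = 0.00545), LARS2 of 2.37 (SE 0.52, limma adjusted p = 0.00844) and YARS2 of 3.70 (SE 1.19, limma adjusted p = 0.0381). YARS2 had few intron counts, 28, 5, 13, 21 and 41 in the same library order. Its intron share was 68.3% in mock cells, above the 53.8% with randomer at 9 h. The YARS2 call was lost with mock added (limma adjusted p = 0.112) and without the time term (limma adjusted p = 0.0701). FARSA, DARS and FARS2 had changes of 2.32, 2.16 and 2.84 that did not pass (limma adjusted p = 0.102, 0.0566 and 0.0554). The 6 cytosolic calls came down to 1 without control oligo at 16 h and to 0 without any of the other 3 libraries, and the 2 mitochondrial calls to 0 without any of those 3. Both came to 0 when each library's ratios were centred on their median. Calls over all genes were also fewer in every fit with a library left out.

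The 8 synthetases of the multisynthetase complex (DARS, EPRS, IARS, KARS, LARS, MARS, QARS and RARS) had a median exon change of -0.32 and a median intron change of 0.86, with 3 called higher on introns and 0 on exons. The other 11 cytosolic genes tested had medians of -0.29 and 1.15, with 2 called higher on introns. The 2 groups were thus near each other on exons, and neither difference was tested. For these and the groups that follow, the all-gene medians were 0.04 on exons and 1.96 on introns. Of all genes, 47.6% were called higher on introns, and 6.79% higher and 3.11% lower on exons. Of 13 cytosolic genes listed as ATF4 targets from general knowledge, 12 were tested, with 0 called on exons, 2 called higher on introns, and medians of -0.34 and 1.06. The 7 cytosolic genes outside that list had medians of -0.20 and 1.44. The 7 cytosolic genes with the TGATGNAA match in the promoter stretches printed above had a median exon change of -0.31 and intron change of 1.12, and the 9 cytosolic genes without it -0.27 and 1.16, with 2 called higher on introns in each group. With YARS2 added to the genes that have the match, their medians were -0.41 and 1.12.

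ATF4 itself had 417, 581, 604, 553 and 317 exon counts and a fitted change of 0.19 (edgeR adjusted p = 0.752). Its known targets ASNS, the asparagine synthetase, and TRIB3, a pseudokinase, had changes of -0.98 and 0.42 (edgeR adjusted p = 0.196 and 0.335). None of the 10 genes listed around the sensing of uncharged tRNA was called on exon counts, against 6.79% of all genes higher and 3.11% lower. These 10 include ATF4, ASNS and TRIB3. Their median change was 0.23, with ASNS the lowest at -0.98 and CHAC1 the highest at 0.72 (SE 1.13).

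A wider list of 43 genes around tRNA and its charging includes the 10 genes on the sensing of uncharged tRNA. Of the 43, 40 were tested on exon counts, with a median change of -0.33. In this list 0 genes were called higher and 3 lower, against 6.79% and 3.11% of all genes. EEF1A1, the elongation factor that carries charged tRNA to the ribosome, had 3284, 4671, 4367, 1834 and 1336 exon counts and fell by 0.84 on the log2 scale (SE 0.18, edgeR adjusted p = 0.000327). XPOT, the export receptor for tRNA, had 796, 863, 953, 421 and 276 counts and fell by 0.72 (SE 0.25, edgeR adjusted p = 0.0434). SEPHS1, a selenophosphate synthetase family member, had 183, 318, 253, 87 and 73 counts and fell by 1.14 (SE 0.37, edgeR adjusted p = 0.0307). All 3 had both randomer libraries below the other 3. EEF1A1 has many near-identical pseudogenes, so its count is uncertain. On intron counts 9 of 35 genes of the wider list were called higher and 0 lower, against 47.6% of all genes higher. Of those 9, 4 were among the genes on the sensing of uncharged tRNA. The complex scaffold genes AIMP1, AIMP2 and EEF1E1 were not called, with exon changes of 0.76, -0.02 and -0.22.

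The sources do not say whether counting used strand, so genes that overlap may share reads. In the GENCODE annotation 12 of the 36 members overlap another protein-coding gene. MARS overlaps ARHGAP9 and DDIT3, HARS overlaps HARS2 and WDR55, KARS overlaps TERF2IP, WARS overlaps WDR25 and YARS overlaps S100PBP. On the mitochondrial side CARS2 overlaps ING1, YARS2 overlaps DNM1L, EARS2 overlaps UBFD1 and SARS2 overlaps MRPS12. Intron counts of the remaining genes can also hold RNA of smaller genes inside them, such as SNORA84 in IARS.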

How the data were processed

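The authors deposited raw counts per gene symbol, in a table of exon counts and a table of intron counts with 1 column per library. The submitters' processing notes name TopHat2, HTSeq and hg19 without versions, and strand use is not stated there. In both tables the same number of rows, 28, with symbols turned into dates were removed (0.153% to 0.289% of a column). Members were matched by symbol. Genes needed 10 counts in at least 2 of the 5 libraries, so the 2 randomer libraries alone could let a gene in.

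The 4 oligo libraries were fitted with edgeR 4.0.16 (R 4.3.3, quasi-likelihood test, with terms for oligo and time and 1 residual degree of freedom). Library sizes came from exon totals and TMM factors of the filtered genes over 5 libraries and served for introns too. This definition was taken because its call counts, 775 higher and 355 lower, equal those of earlier processing of these data; of several others tried after the data were seen, the 4 recorded called 800 to 810 higher and 370 to 411 lower, with IARS2 the same single exon call among the members in each, and 5 or 6 cytosolic intron calls. The log2 intron-to-exon ratio, with 0.5 added, was fitted with limma 3.58.1. P-values were adjusted by Benjamini-Hochberg over all genes, and a gene rose or fell at an adjusted p under 0.05. The edgeR SE is the absolute log2 change over the square root of F. Ratios of 1 library to 1 library carry no test, only Clopper-Pearson 95% limits, which cover counting error only, since PCR copies are not independent molecules. The exon and intron tests were checked on simulated counts, each scaled by TMM factors of the simulated counts themselves. The intron test with exon library sizes, as used here, was not checked in this way. The ratio test was checked on simulated counts without a general intron shift. When the ratio test was simulated with that shift kept, nearly all its calls were genes with no change of their own, so ratio calls here do not separate a gene's change from the general one.

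Members, gene lists and the range of 100 to 2000 counts were chosen with earlier results of these data known, and that range was the 1 such range tried. Genes named were those called on exons or called lower on the ratio, the highest and lowest of each set by exon and intron change among genes averaging 50 counts or more in that table, and the highest by ratio. A few others were chosen after their values were seen. On exons these were FARS2, TARS2, YARS2, PARS2, MARS2, IARS, AARS and EPRS, and on introns LARS and WARS2. ATF4, ASNS, TRIB3, CHAC1 and the scaffold genes were also chosen in this way. Lengths and overlaps come from GENCODE release 29, with names only, and promoters from RefSeq (GRCh38.p14). No transcript of another gene matched a member over 100 bases at 95% identity (BLAST 2.17.0), overlapping genes aside. Alternatives were other scalings, DESeq2 1.42.0, no filter, no time term, mock added, libraries left out, counts divided by 8, another pseudocount and centring.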

Additional observations from a re-analysis of the deposited data

Results flagged for a closer look

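In 3 genes the exon ratio of randomer to control oligo pointed one way at 9 h and the other way at 16 h, with the counting intervals of both times excluding 0. The log2 ratio of DARS was 1.82 at 9 h and -1.52 at 16 h, that of FARS2 was 2.03 and -3.53, and that of HARS was -0.78 and 0.40. The difference between times was not tested, because each group is 1 library. The counts behind these values are low in places: FARS2 had 2 exon counts with randomer at 16 h and DARS had 19. HARS had 303 counts with control oligo at 9 h and 154 with control oligo at 16 h, and its scaled control level at 16 h was -0.97 on the log2 scale relative to 9 h. Intron counts of DARS and FARS2 were above control oligo at both times.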

How the results depend on the processing

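No paired analysis was possible because the labels give no replicate numbers; the main fits do match the oligos within each time through the time term. On exon counts DESeq2 called 2 cytosolic members lower, against 0; without the time term 0 mitochondrial members were lower, against 1. On introns cytosolic members called higher numbered 11 with DESeq2, 9 with counts divided by 8, 8 with mock added and 0 with intron TMM factors, which called 4 lower; mitochondrial members higher numbered 8 with DESeq2 and 0 with intron TMM factors. Ratio calls were 0 in both sets after centring, and 1 mitochondrial gene with mock added or without the time term. With DESeq2 size factors 1 member was at least 2-fold lower on introns in control oligo against mock at 16 h. The intron change of NARS turned to 0.02 with mock added, and with intron TMM factors those of MARS, FARSB, EARS2 and HARS2 turned to -1.45, -0.21, -1.46 and -0.89. The cause of these moves was not tested.

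Leaving out each library gave 0 mitochondrial exon calls in all 4 fits, 1 to 4 cytosolic and 2 to 5 mitochondrial intron calls, and 0 to 1 cytosolic and 0 to 2 mitochondrial ratio calls. The ranges of the changes that turned sign were, on exons, -1.10 to 1.22 for DARS, -0.10 to 0.45 for TARS, -0.01 to 0.41 for HARS2, -0.35 to 0.17 for EARS2 and -0.85 to 0.05 for LARS2. On introns they were -0.29 to 0.08 for EPRS, -1.12 to 0.31 for AARS2, -0.08 to 0.45 for MARS, -0.37 to 0.34 for NARS, -0.12 to 0.48 for EARS2 and -0.22 to 1.81 for HARS2. Each of these fits leaves 1 library in an oligo group. Calls over all genes were also fewer in each, on exons, introns and the ratio, so lost calls were not particular to the members. At this depth, genes under about 50 counts gave only wide intervals.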
